A study of Mus musculus with 5 samples.

Results

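The nuclear genes of oxidative phosphorylation are those whose symbols start with Nduf followed by a, b, c, s or v, with Uqcr, with Cox4 to Cox8 or with Atp5, together with Sdha, Sdhb, Sdhc, Sdhd, Cyc1 and Cycs. The rule found 83 of the 15597 genes in the deposited counts. By name, 37 belong to complex I, 4 to complex II, 8 to complex III, 14 to complex IV and 15 to complex V, and Cycs is cytochrome c. The rule also caught 2 assembly factors of complex I, Ndufaf1 and Ndufa12l (a synonym of Ndufaf2), and 2 genes that code for no subunit, Cox4nb (a synonym of Emc8) and Atp5s. They were read in 5 plates of single mouse cells, for which the labels name no genotype, strain, age or treatment. Of the plates, 3 held cells of the embryonic stem (ES) line R1, taken per the labels from spheres, 1 held Neuro2A, a neuroblastoma line, and 1 held mouse embryonic fibroblasts (MEF). Neuro2A and MEF were grown in the same DMEM medium with serum, and the ES cells by another published protocol, so cell type and culture cannot be told apart. ES replicates 1 to 3 are numbered in the order of deposit, and the labels do not say whether they came from separate cultures.

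Oxidative phosphorylation passes electrons from NADH through complex I, or from succinate through complex II, to ubiquinone, then through complex III and the carrier cytochrome c to complex IV, where oxygen is reduced. Complexes I, III and IV pump protons across the inner mitochondrial membrane, and complex V, the ATP synthase, uses their return to make ATP. Most subunits are encoded in the nucleus, and a core of complexes I, III, IV and V is encoded in mitochondrial DNA. Several subunits of complexes IV and V have paralogs, and some of those of complex IV are known from muscle, lung or testis.

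Each well of a plate was meant for 1 sorted cell and had its own barcode, and the same 96 barcodes were read in all 5 plates. Those wells that reached 1000 gene reads were kept, 431 of 480, where the design text states 436 cells. Kept wells of ES replicates 1, 2 and 3 held 11432543, 262517 and 2134248 gene reads, those of Neuro2A 3155092 and those of MEF 2930884. In ES replicate 2, 1 well held 25.9% of the gene reads. In CPM, the unit described in the next paragraph, and summed over each list, ES markers lay between 6594 and 9733 in the ES plates, at 0.317 in Neuro2A and at 1.36 in MEF, with 7 and 6 of the 8 markers at 0 reads. Fibroblast markers summed to 33045 in MEF and to 5089 in ES replicate 3, against 817 and 1840 in the other ES plates, and neuroblastoma markers summed to 1571 in Neuro2A and to at most 472 elsewhere. Reads of genes specific to MEF appeared in ES replicate 3 at a median of 10.8% of their MEF reads (199 genes), and genes specific to Neuro2A appeared in MEF at 9.45% (134 genes). Such reads are called carried-over below as a label alone, and their source was not tested. Their part in the results below was not tested beyond the values given after such reads were subtracted.

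Levels are given as counts per 1000000 gene reads (CPM), with repeats and mitochondrially encoded genes outside the total. They are not divided by transcript length, so a gene's level is compared across plates, and where genes are ordered by reads the order is one of reads and not of transcripts. A second scale divides each plate by its TMM factor, a trimmed mean that centres most genes. The factors were 1.08, 1.35 and 1.03 in the ES plates, with 0.985 in Neuro2A and 0.676 in MEF, so values of MEF rise against all others on the TMM scale, and a direction is given below only with its value on both scales where they differ. In plate sums, fewer cells that express a gene and less RNA per cell cannot be told apart.

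The 83 genes took 2.23%, 2.29% and 3.11% of gene reads in ES replicates 1, 2 and 3 (2.54% ± 0.493, SD, n = 3). They took 2.16% in Neuro2A (exact binomial 95% interval 2.14% to 2.17%) and 2.33% in MEF (2.31% to 2.35%). The single plates of Neuro2A and MEF lay within 1 SD of the ES mean, but Neuro2A lay outside it without the deepest well of ES replicate 2 (ES 2.70% ± 0.446, with that plate at 2.76%) and without barcodes ending in G (ES 2.25% ± 0.274, Neuro2A 1.91%). ES replicate 3 stood above the other 4 plates, also after subtraction of carried-over reads (3.23%, with MEF at 2.34%). On the TMM scale the shares were 2.06%, 1.70% and 3.03% in the ES plates, with 2.19% in Neuro2A and 3.45% in MEF, so MEF lay above every ES plate there. The ratio of ES to MEF went from 1.09 to 0.656 while that of ES to Neuro2A went from 1.18 to 1.03. With 3 plates against 1, an exact permutation test cannot go below a two-sided p of 0.5, and the shares are given without a test. Intervals cover counting error only.

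The division of these reads between complexes is independent of either scale. Complex I took 29.9%, 30.2% and 32.3% of the members' reads in the ES plates, with 35.5% in Neuro2A and 39.9% in MEF, so every ES plate was below both other plates. Complex IV took 22.6%, 22.2% and 25.1% in the ES plates, with 16.2% in Neuro2A and 21.4% in MEF. Neuro2A was the plate with the smallest complex IV part. Complex II took 4.83%, 4.62% and 2.49% in the ES plates, with 3.27% in Neuro2A and 2.01% in MEF, with ES replicate 3 apart from the other ES plates and MEF lowest. Complex V took 28.1% to 29.8% in the ES plates, with 31.0% in Neuro2A and 26.3% in MEF, and complex III took 10.5% to 12.004%, 11.4% and 9.68%. Ndufa4 was first described in complex I, which its name follows, and was later assigned to complex IV. With Ndufa4 and Ndufa4l2 moved there, complex I took 25.1% to 27.1% in the ES plates, with 31.2% in Neuro2A and 34.2% in MEF, and complex IV took 25.7% to 30.3%, 20.4% and 27.2%, so the order of the plates for complex I was the same.

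**Figure D1:**
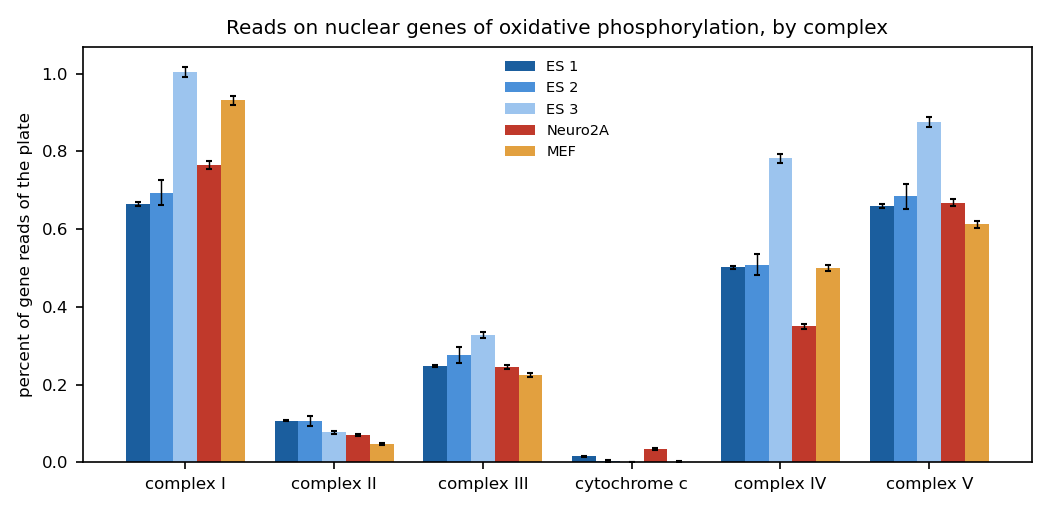
Bars show the percent of each plate's gene reads on the nuclear genes of each complex, with exact binomial 95% intervals as error bars, for 3 ES plates, Neuro2A and MEF on a linear axis from 0. ES replicate 3 is the highest plate for complexes I, III, IV and V, and Neuro2A is the lowest for complex IV. On the TMM scale, not drawn, MEF was above ES replicate 3 for complexes I (1.38% against 0.979%), III (0.334% against 0.320%) and V (0.907% against 0.853%).

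Of the 83 members, 78 had reads in every plate and 71 reached 10 CPM in every plate. No member was without reads in the series. The 5 members with the most reads held 22.6% to 25.9% of the members' reads in each plate. Atp5b, the catalytic beta subunit of the ATP synthase, had the most reads in 4 plates and Ndufa4 in MEF.

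**Figure D2:**
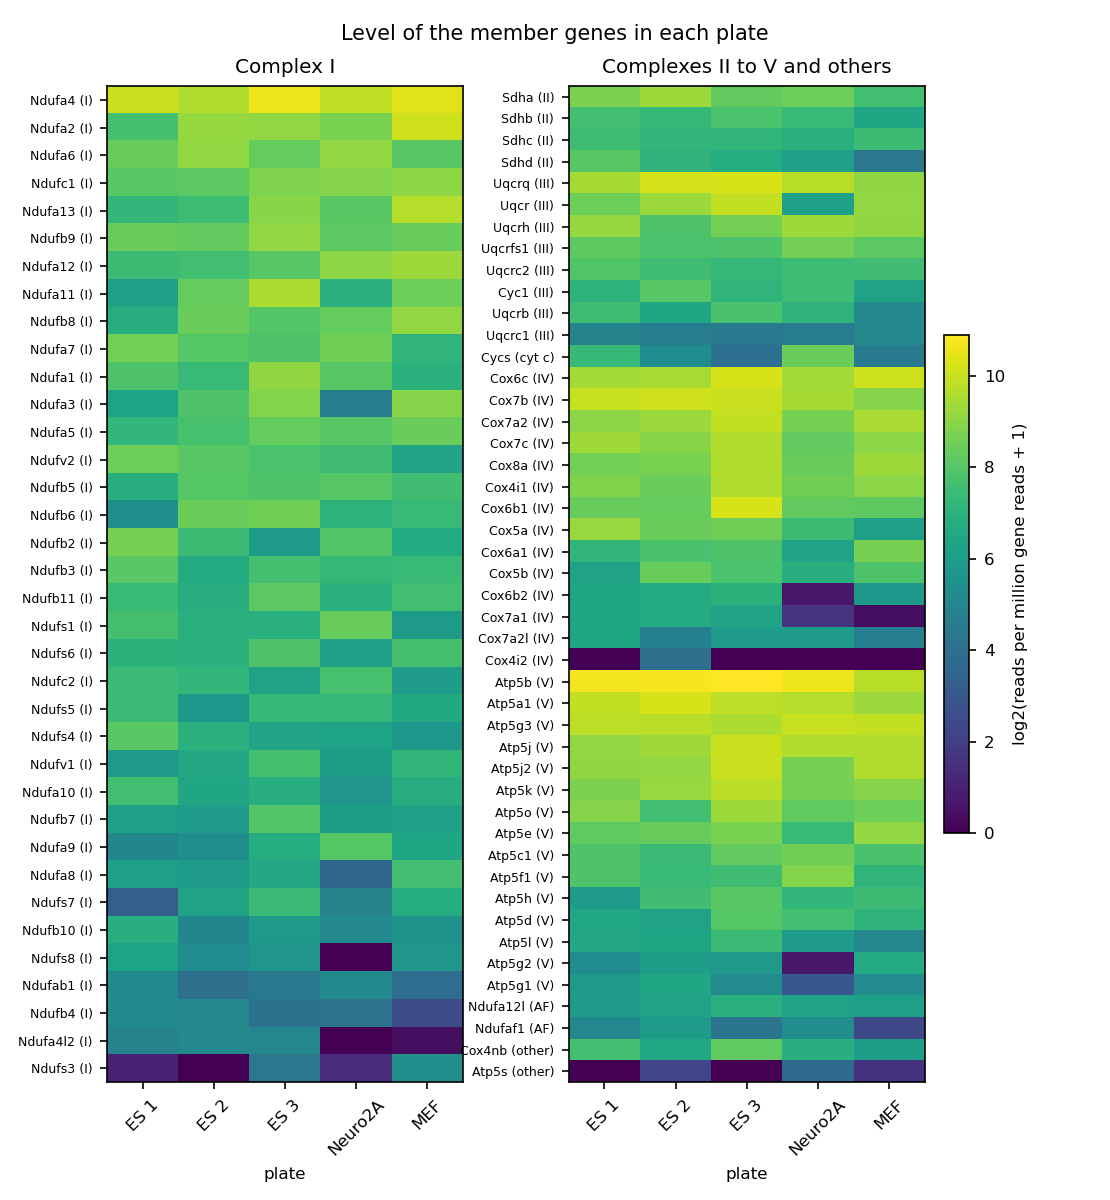
Colour shows log2 of CPM + 1 of 82 of the 83 members (rows, grouped by complex and ordered by mean level, with AF for assembly factor and other for no subunit) in 5 plates (columns). Cox7a1, Ndufa4l2, Ndufs8, Cox6b2 and Atp5g2 have dark cells in Neuro2A or MEF, and Cox4i2 has reads in ES replicate 2 alone.

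Complex I takes electrons from NADH. Among its genes with the largest mean share of a plate's reads, Ndufa4 stood at 1031, 777.1 and 1572 CPM in the ES plates, with 911 in Neuro2A and 1342 in MEF, and Ndufa2, an accessory subunit, at 206, 579.01 and 555 CPM in the ES plates, with 409 in Neuro2A and 1104 in MEF. Ndufa2 was highest in MEF on both scales, and Ndufa4 overlapped with the ES plates in CPM while all ES plates lay lower after TMM scaling. Ndufa6 stood at 331, 559.96 and 316 CPM in the ES plates, with 557 in Neuro2A and 268 in MEF, and Ndufc1 at 273, 278 and 432 CPM, 486 and 524. Both are accessory subunits, and Ndufc1 was lower in every ES plate than in either other plate on both scales.

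A group of accessory subunits was highest in MEF. Ndufa12 was read at 173, 194 and 269 CPM in the ES plates, with 515 in Neuro2A and 626 in MEF. All 3 ES plates lay below both others. Ndufb8 was read at 108, 331 and 249 CPM in the ES plates, with 319 in Neuro2A and 555 in MEF, and Ndufa13 at 145, 179 and 488 CPM, 272 and 808. Ndufa8 was read at 71.6, 60.95 and 93.7 CPM in the ES plates, with 11.4 in Neuro2A and 197 in MEF, which puts the ES plates between the other two. The ES plates differed among themselves by more than 3-fold for Ndufa13 and Ndufb8.

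Some core subunits, which bind the cofactors or surround them, are named here after their values were seen. Ndufv1, which binds the flavin, stood at 57.7, 95.2 and 201 CPM in the ES plates, with 66.6 in Neuro2A and 145 in MEF, and its ES plates overlapped with both others in CPM but lay below MEF on the TMM scale. Ndufs7, a cluster-binding subunit, stood at 8.75, 76.2 and 169 CPM in the ES plates, with 27.9 in Neuro2A and 105 in MEF, and overlapped with both on both scales. Ndufs8, which binds iron-sulphur clusters, was read at 79.2, 38.1 and 50.6 CPM in the ES plates and 49.8 in MEF, and it had 0 reads in Neuro2A. Against the floor of 3 reads in that library, 0.951 CPM, the ES mean was at least 58.9-fold higher. Ndufs1, another core subunit, stood at 203, 118 and 119.95 CPM in the ES plates, with 322 in Neuro2A and 60.4 in MEF. Every ES plate was below Neuro2A on both scales, and above MEF in CPM but overlapping with it on the TMM scale. Ndufv2, another cluster-binding core subunit, stood at 358, 274 and 224 CPM in the ES plates, with 184 in Neuro2A and 81.9 in MEF, and was higher in every ES plate on both scales. Ndufs3 had 13 reads in ES replicate 1, 0 in ES replicate 2 and 42 in ES replicate 3, 5 in Neuro2A and 120 in MEF. After subtraction of reads carried over from MEF, 29 of the 42 reads of ES replicate 3 were left.

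Complex II, succinate dehydrogenase, is the only complex encoded wholly in the nucleus and also an enzyme of the citric acid cycle. Sdhd, one of its membrane anchors, was read at 268, 133 and 104 CPM in the ES plates, with 69.4 in Neuro2A and 19.1 in MEF. Every ES plate was higher than both other plates, and MEF had 13.2 CPM after subtraction of carried-over reads. Sdha, the flavoprotein, stood at 432, 625 and 307 CPM in the ES plates, with 358 in Neuro2A and 191 in MEF, higher in every ES plate than in MEF on both scales. Sdhb, the iron-sulphur protein, stood at 196, 152 and 221 CPM in the ES plates, with 160.1 in Neuro2A and 83.9 in MEF, but overlapped with MEF after TMM scaling. Sdhc, the other anchor, stood at 179, 149 and 144 CPM in the ES plates, with 119 in Neuro2A and 174 in MEF, and lay lower than MEF in every ES plate on the TMM scale alone.

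Complex III passes electrons from ubiquinol to cytochrome c. Uqcrq, a small subunit, stood at 679 CPM, 1147 CPM and 1192 CPM in the ES plates, with 830.4 in Neuro2A and 547 in MEF. Uqcr, another small subunit, stood at 359, 606 and 939 CPM in the ES plates, with 73.2 in Neuro2A and 556 in MEF. Neuro2A was the low plate, 8.67-fold under the ES mean in CPM and 7.60-fold on the TMM scale. Uqcrh, the hinge protein, stood at 578, 229 and 395 CPM, 629.8 and 547, and Uqcrfs1, the Rieske iron-sulphur protein, at 288, 225 and 227 CPM, 395 and 278. Both were lower in every ES plate than in Neuro2A. Cyc1, the haem-bearing cytochrome c1, stood at 130.1, 263 and 139 CPM in the ES plates, with 183 in Neuro2A and 76.4 in MEF.

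Cytochrome c, encoded by Cycs, carries electrons to complex IV and triggers apoptosis when it leaves the mitochondrion. Cycs stood at 154, 38.1 and 14.5 CPM in the ES plates, with 350.2 in Neuro2A and 21.2 in MEF. Neuro2A was the highest plate, and MEF lay between ES replicates 2 and 3 in CPM and between ES replicates 1 and 2 on the TMM scale. The amount to subtract for reads carried over from Neuro2A, 9.45% of 1105 reads, was larger than the 62 Cycs reads in MEF. The result was set to 0 and does not show the source of these reads. Cycs has processed pseudogenes, and the handling of reads that map to several places is not given in the sources used here.

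Complex IV hands electrons to oxygen. Cox6c stood at 660.4, 709 and 1201 CPM in the ES plates, with 665 in Neuro2A and 1066 in MEF, and Cox7b at 989.98, 1082 and 1025 CPM, 679.5 and 482. Cox7b was higher in every ES plate than in Neuro2A and MEF on both scales, and its ES plates lay close together (1032 ± 46.4 CPM, SD, n = 3). Cox7a2 stood at 515, 613 and 944 CPM in the ES plates, with 405 in Neuro2A and 727 in MEF, and Cox7c at 640.3, 491 and 799.8 CPM, 307 and 512. All 4 are small subunits around the mitochondrially encoded core. Cox5a, a subunit on the matrix side, stood at 588, 343 and 365 CPM in the ES plates, with 174 in Neuro2A and 69.9 in MEF, so every ES plate was higher than both. Cox6a1 lay in between, at 140.3, 213 and 236 CPM in the ES plates, with 80.5 in Neuro2A and 401 in MEF.

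Complex V makes ATP. Atp5b stood at 1644, 1684 and 1889 CPM in the ES plates, with 1545 in Neuro2A and 831 in MEF, and Atp5a1, the alpha subunit, at 939 CPM, 1181 CPM and 896 CPM, 826 and 599. For Atp5b every ES plate was higher than MEF on both scales, whereas Atp5a1 was higher in CPM and lower after TMM scaling. Atp5j, the coupling factor of the stalk, stood at 558, 644 and 1017 CPM in the ES plates, with 769 in Neuro2A and 762 in MEF. Atp5f1, the b subunit of the stalk, stood at 238, 164 and 188 CPM in the ES plates, with 472 in Neuro2A and 139.9 in MEF, lower in every ES plate than in Neuro2A. Atp5e, the epsilon subunit, stood at 301, 324 and 415 CPM in the ES plates, with 166 in Neuro2A and 556 in MEF, between the other two.

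Several paralogs of subunits had reads in the ES plates and few or none in another plate. Cox7a1, the paralog known from heart and skeletal muscle, was read at 82.8, 103 and 81.1 CPM in the ES plates (88.9 ± 12.1, SD, n = 3), 2.22 in Neuro2A and 0.341 in MEF. Neuro2A had 7 reads, all in 1 well, and MEF had 1 read. The well with the most Cox7a1 reads held 35.4%, 33.3% and 10.4% of them in the ES plates. The ES mean was 40.1-fold above Neuro2A in CPM and 34.3-fold on the TMM scale, and the ratio of the ES mean to the single MEF read was 261 (exact Poisson 95% interval 46.8 to 10293). In the ES plates 24 of 93, 12 of 66 and 30 of 94 wells had a Cox7a1 read, against 1 of 86 and 1 of 92 wells, at median depths of 101130, 2520.5 and 17003 gene reads per ES well, 26278 per Neuro2A well and 12749 per MEF well. Muscle marker genes summed to 0.0875, 11.4 and 2.34 CPM in the ES plates, with 0 in Neuro2A and 20.8 in MEF. Of the reads on the Cox7a set (Cox7a1, Cox7a2 and Cox7a2l), Cox7a1 held 12.1%, 13.8% and 7.46% in the ES plates, with 0.471% in Neuro2A and 0.0454% in MEF.

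Cox6b2, the paralog known from testis, was read at 85.2, 103 and 126 CPM in the ES plates (105 ± 20.2, SD, n = 3), 0.634 in Neuro2A and 55.6 in MEF. The Neuro2A value is 2 reads, both in 1 well, and the ratio of the ES mean to it was 165 (45.7 to 1362). Of the MEF reads, 51.5% came from 1 well, as did 39.2% of those of ES replicate 1, and on the TMM scale MEF fell within the range of the ES plates. Cox6b2 held 20.7%, 24.8% and 9.51% of the reads of the Cox6b pair in the ES plates, with 0.204% in Neuro2A and 16.2% in MEF. Its ubiquitous partner Cox6b1 stood at 325, 312 and 1194 CPM in the ES plates, with 310.3 in Neuro2A and 287 in MEF, so the lower share of Cox6b2 in ES replicate 3 came with a higher Cox6b1.

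The promoter windows of both pairs are shown because the paralogs differed between cell types where their partners did not reach such ratios, a choice made after the values were seen. They run from 250 bases before to 50 bases after the start of the RefSeq gene (GRCm38.p6), 5′ to 3′ on the gene's strand, with each CpG dinucleotide in capitals.
Cox7a1, chr7:30183921-30184220, plus strand: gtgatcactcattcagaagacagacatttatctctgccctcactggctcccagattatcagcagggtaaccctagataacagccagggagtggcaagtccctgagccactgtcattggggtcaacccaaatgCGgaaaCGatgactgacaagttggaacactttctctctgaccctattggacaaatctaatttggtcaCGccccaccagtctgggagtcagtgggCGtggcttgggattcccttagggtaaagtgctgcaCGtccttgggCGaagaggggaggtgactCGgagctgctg
Cox7a2, chr9:79759804-79760103, minus strand: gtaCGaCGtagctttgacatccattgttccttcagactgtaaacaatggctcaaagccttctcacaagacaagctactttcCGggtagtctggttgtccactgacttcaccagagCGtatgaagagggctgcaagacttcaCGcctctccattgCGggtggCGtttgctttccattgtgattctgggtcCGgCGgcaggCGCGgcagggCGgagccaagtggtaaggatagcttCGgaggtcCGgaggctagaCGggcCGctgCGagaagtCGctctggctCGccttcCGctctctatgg
Cox6b2, chr7:4753045-4753344, minus strand: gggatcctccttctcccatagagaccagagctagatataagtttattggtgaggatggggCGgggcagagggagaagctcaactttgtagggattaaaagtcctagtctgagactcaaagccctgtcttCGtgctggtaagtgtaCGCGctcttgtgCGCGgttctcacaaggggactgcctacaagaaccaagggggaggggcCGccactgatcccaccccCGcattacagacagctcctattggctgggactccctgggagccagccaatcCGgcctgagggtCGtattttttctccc
Cox6b1, chr7:30626065-30626364, minus strand: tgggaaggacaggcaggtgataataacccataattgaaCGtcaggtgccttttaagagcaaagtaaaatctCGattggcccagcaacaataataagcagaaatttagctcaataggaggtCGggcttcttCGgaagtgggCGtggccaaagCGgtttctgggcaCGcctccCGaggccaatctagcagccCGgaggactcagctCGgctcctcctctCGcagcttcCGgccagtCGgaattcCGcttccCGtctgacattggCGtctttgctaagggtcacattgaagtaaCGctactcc
The windows of the paralogs held 7 CpG in Cox7a1 and 10 in Cox6b2, and those of their partners 20 in Cox7a2 and 17 in Cox6b1. The median was 7 over all 27025 windows, 21 over the 8696 windows of genes tested here and 19.5 over the 68 members with a window, so the members were close to genes tested and the windows of Cox7a1 and Cox6b2 were below both. Few CpG were not particular to such paralogs, since Cox7b, with reads in all plates, had 5. Atp5g2, with 2 reads in Neuro2A, had 20 CpG beside 21 in Atp5g3. Methylation was not measured, and the counts describe letters alone.

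Ndufa4l2, a paralog of Ndufa4 known to be induced in low oxygen, was read at 28.2, 34.3 and 31.9 CPM in the ES plates (31.4 ± 3.08, SD, n = 3), with 0 reads in Neuro2A and 1 read in MEF. The ES mean was at least 33.1-fold higher than the floor of 3 reads in Neuro2A, and 92.1 times the MEF read (16.5 to 3639). Reads came from few wells, 14 of 93, 4 of 66 and 16 of 94, and 1 well gave 61.2% and 66.7% of them in ES replicates 1 and 2. Ndufa4l2 held 2.66%, 4.23% and 1.99% of the reads of its pair in the ES plates.

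The Atp5g trio codes for the same mature c subunit of the ATP synthase ring behind different import peptides. Atp5g3 held 90.03%, 85.2% and 88.7% of the trio's reads in the ES plates (88.0% ± 2.51, SD, n = 3), 99.2% in Neuro2A and 87.4% in MEF. Atp5g2 stood at 38.2, 64.8 and 57.2 CPM in the ES plates, with 0.634 in Neuro2A (2 reads) and 98.6 in MEF, and the ratio of the ES mean to Neuro2A was 84.2 (23.3 to 695). Atp5g1 stood at 59.8, 83.8 and 37.02 CPM in the ES plates, with 6.97 in Neuro2A and 37.2 in MEF. Of its reads, 1 well gave 58.7% in MEF and 1 well gave 32.9% in ES replicate 1. Both minor members were thus low in Neuro2A, where Atp5g3 was at 1006 CPM against 886 CPM, 853 CPM and 739.8 CPM in the ES plates and 939 in MEF.

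The other sets showed 1 form. All reads of the Cox6a, Cox7b and Cox8 sets were on Cox6a1, Cox7b and Cox8a, since the files used here list no row for Cox6a2, Cox7b2, Cox8b or Cox8c. Cox4i2, the paralog known from lung, had 4 reads in 1 well of ES replicate 2 (4.30% of the pair, 1.18% to 10.6%) and 0 reads elsewhere, against 5147 reads of Cox4i1 in ES replicate 1.

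**Figure D3:**
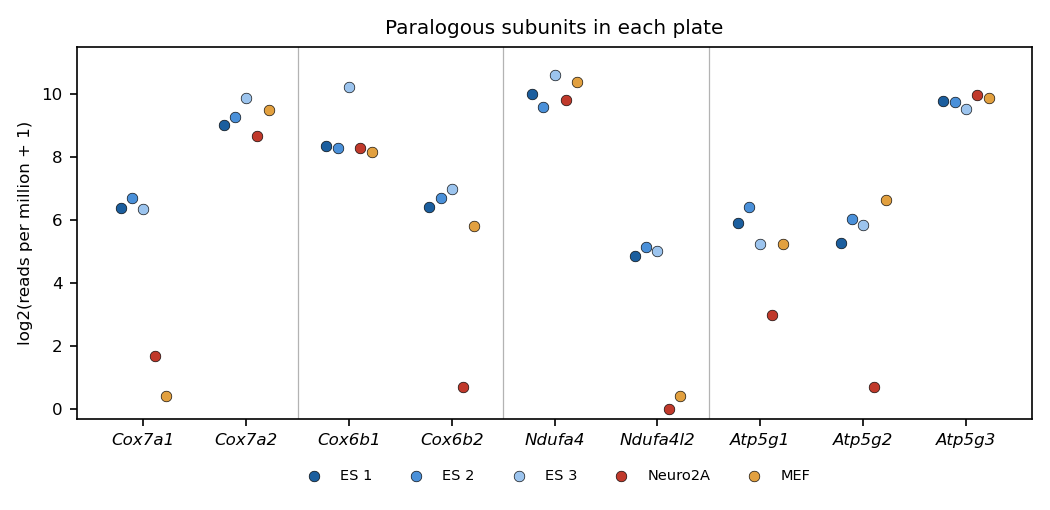
Points show log2 of CPM + 1 of paralogous subunits in each of 5 plates, with sets separated by vertical lines. Cox7a1 and Ndufa4l2 in Neuro2A and MEF, and Cox6b2 and Atp5g2 in Neuro2A, are below 2, while Cox7a2, Ndufa4 and Atp5g3 stay above 8 in all plates.

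For a test over all genes, the plate sums were fitted with edgeR's quasi-likelihood test, which has 2 residual degrees of freedom here, all from the ES plates. Of the members, 82 of 83 passed the filter on low counts (all but Cox4i2). In ES against MEF, 0 members passed an adjusted p of 0.05, and so did 0% of the 12271 genes tested. At an unadjusted p under 0.05 there were 7 members, against 8.38% of all genes. Cox7a1 was the higher one (log2 fold change 7.18 ± 1.87, SE, adjusted p = 0.493). The 6 lower ones were Ndufa12 (-2.28 ± 0.65, adjusted p = 0.50), Ndufb8, Ndufa2, Cox6a1, Ndufa8 and Ndufa13, at -2.26 to -1.77. In ES against Neuro2A, 0 members and 0% of all genes passed the adjusted threshold, and 6 members had an unadjusted p under 0.05 against 12.4% of all genes. All 6 were higher in ES: Cox6b2 (7.11 ± 1.54, adjusted p = 0.251), Ndufs8, Atp5g2, Cox7a1, Uqcr (2.94 ± 0.99, adjusted p = 0.361) and Ndufa4l2. Over all genes tested, too, most of those with an unadjusted p under 0.05 in this contrast were higher in ES. Fitted values of genes at 0 reads in Neuro2A, Ndufs8 and Ndufa4l2, depend on the prior count and are not given as folds.

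DESeq2 called 1 member in ES against MEF, Cox7a1 (adjusted p = 0.0053), against 3.22% of genes called higher and 0.701% lower. In ES against Neuro2A it called 7, all higher in ES (Atp5g2, Cox6b2, Cox7a1, Ndufa3, Ndufa4l2, Ndufs8 and Uqcr), against 8.78% of genes higher and 1.33% lower. Without ES replicate 1, edgeR called Cox7a1 in ES against MEF (1.81% of genes higher, 3.67% lower), and in ES against Neuro2A it called Atp5g2, Cox6b2, Ndufa3, Ndufs8 and Uqcr as higher and Cycs as lower (8.64% and 3.59%). limma-voom called 0 members in both contrasts, where it called 0.00815% of genes higher and 4% lower against MEF and 0% against Neuro2A.

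As a description, members were counted by whether all 3 ES plates lay on the same side of the other plate on both scales. Against MEF, 13 of 82 lay higher (background 23.1% of genes) and 14 lower (28.5%), and 55 did neither. The higher ones were Ndufv2, Ndufb4, Ndufa4l2 and the assembly factor Ndufaf1, Sdha and Sdhd, Cyc1 and Uqcrb, Cox5a, Cox7a1 and Cox7b, and Atp5b and Atp5l. The lower ones were 9 complex I genes (Ndufa2, Ndufa3, Ndufa5, Ndufa8, Ndufa12, Ndufa13, Ndufb8, Ndufc1 and Ndufs3), Uqcrc1, Cox6a1, Atp5e, Atp5g2 and Atp5g3. In CPM alone the counts were 29 higher (31.5% of genes) and 14 lower (28.5%), and on the TMM scale 13 (23.1%) and 36 (39.9%), so the balance depends on the scale.

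Against Neuro2A, 20 of 82 members lay higher on both scales (28.6% of genes) and 15 lower (25.6%). In CPM alone 29 lay higher (30.9%) and 15 lower (25.6%), and on the TMM scale 20 (28.6%) and 18 (28.3%). Of 13 complex IV genes tested, 7 lay higher (Cox5a, Cox6a1, Cox6b2, Cox7a1, Cox7a2, Cox7b and Cox7c) and 0 lower, which was not set against chance. Complex I had 7 higher and 8 lower of 37, and complex V 4 higher and 3 lower of 15. The median log2 fold change of the members was 0.20 against 0.91 for all genes tested, and in ES against MEF -0.43 against -0.08. Without TMM these medians were 0.37 against 1.13 and 0.27 against 0.67, so the sign of the members' median in ES against MEF depends on the scale. It also changed to 0.30 without ES replicate 2, and in ES against Neuro2A to -0.05 without ES replicate 3. Both contrasts share the ES plates.

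Neuro2A and MEF have 1 plate each, and their ratio has no replicate check. The members' median log2 ratio of Neuro2A to MEF was -0.58 on the TMM scale (all genes -0.03) and -0.06 in CPM (all genes 0.00). On both scales 12 members were over 2-fold higher in Neuro2A (26.2% of genes) and 18 over 2-fold lower (32.2%). The higher ones included Cycs, Ndufs1, Ndufa9, Ndufc2, Sdhd and Atp5f1, and the lower ones Ndufs8, Ndufa3, Ndufa8, Uqcr, Cox6b2, Atp5g1 and Atp5g2. In MEF, 1 well gave 58.7% of the Atp5g1 reads and 1 well gave 51.5% of the Cox6b2 reads.

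Other genes of the pathway were counted from lists. Of 19 assembly genes tested, 5 lay higher and 4 lower in every ES plate than in MEF on both scales, and 9 higher and 5 lower than in Neuro2A, and edgeR called 0 (adjusted p of at least 0.340). Cox17, the copper chaperone of complex IV, stood at 432, 491 and 693 CPM in the ES plates, with 246 in Neuro2A and 168 in MEF, higher in every ES plate. Of 14 citric acid cycle genes, 2 lay higher and 3 lower than in MEF, and 2 higher and 7 lower than in Neuro2A. Idh3a, a subunit of isocitrate dehydrogenase, stood at 123, 114 and 133 CPM in the ES plates, with 321 in Neuro2A and 196 in MEF.

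Of 9 carriers and regulators of the ATP synthase step, 1 lay higher and 3 lower than in MEF, and 1 higher and 2 lower than in Neuro2A. The adenine nucleotide carriers, which exchange ADP for ATP, went opposite ways: Slc25a4 stood at 155, 217 and 159.8 CPM in the ES plates, with 2529 in Neuro2A and 689.6 in MEF (edgeR adjusted p = 0.177 against Neuro2A), and Slc25a5 at 1007, 377 and 487 CPM, 142 and 270.2. Slc25a5 was higher in every ES plate than in Neuro2A on both scales but overlapped with MEF after TMM scaling. Of 10 transcriptional regulators tested, 5 lay higher and 0 lower than in MEF, and 1 higher and 6 lower than in Neuro2A. Tfam, which packages and transcribes mitochondrial DNA, stood at 177, 118 and 124 CPM in the ES plates, with 222 in Neuro2A and 42.6 in MEF, and Gabpa, the DNA-binding subunit of the ETS factor NRF-2, at 94.8, 107 and 79.7 CPM, 252 and 31.7. Background shares for these counts are those given for the members.

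NRF-1 and ETS factors are known to bind promoters of many respiratory genes. Both strands of the promoter windows were searched for GCATGCG, the core of the NRF-1 motif, and CCGGAAG, the core of an ETS motif. Of the 68 members with a window, 11 held the NRF-1 core (16.2%, against 3.64% of all 27025 windows), 16 the ETS core (23.5% against 9.12%) and 22 either (32.4% against 12.2%). All windows include genes without reads in these cells. Among the 8696 windows of genes tested here, 7.03% held the NRF-1 core, 19.1% the ETS core and 24.7% either, so the members' share with the ETS core was close to that of genes tested. These windows cover 70.9% of the genes tested, which makes that background incomplete. The members with the largest mean share of a plate's reads among those with a match are shown, with matches in capitals. The NRF-1 core overlaps its own reverse complement, so 8 capitals hold a match on each strand.
Atp5k, chr5:108434350-108434649, minus strand: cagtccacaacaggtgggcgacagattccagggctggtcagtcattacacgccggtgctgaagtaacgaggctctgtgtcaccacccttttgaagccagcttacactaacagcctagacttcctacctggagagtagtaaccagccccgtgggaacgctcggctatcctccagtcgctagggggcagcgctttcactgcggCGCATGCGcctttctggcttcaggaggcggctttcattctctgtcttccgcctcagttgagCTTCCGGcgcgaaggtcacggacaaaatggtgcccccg
Uqcr, chr10:80406772-80407071, minus strand: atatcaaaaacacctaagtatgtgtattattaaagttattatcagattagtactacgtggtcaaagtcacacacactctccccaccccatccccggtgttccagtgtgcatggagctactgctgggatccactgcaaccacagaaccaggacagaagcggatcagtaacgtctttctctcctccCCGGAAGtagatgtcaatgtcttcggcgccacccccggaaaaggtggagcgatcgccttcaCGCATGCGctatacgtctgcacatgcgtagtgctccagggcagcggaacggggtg
Cox8a, chr19:7217567-7217866, minus strand: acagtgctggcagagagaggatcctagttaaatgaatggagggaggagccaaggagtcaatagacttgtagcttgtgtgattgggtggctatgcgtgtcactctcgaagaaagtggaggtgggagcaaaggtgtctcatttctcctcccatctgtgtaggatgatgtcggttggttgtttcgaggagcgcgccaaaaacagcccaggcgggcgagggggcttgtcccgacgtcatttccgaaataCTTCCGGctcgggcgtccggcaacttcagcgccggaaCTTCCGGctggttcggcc
Atp5k, a subunit of the membrane part of the ATP synthase, stood at 420.5, 583 and 859 CPM in the ES plates, with 406 in Neuro2A and 480.4 in MEF. Cox8a stood at 381, 408 and 792 CPM, 327 and 622. Uqcr, with both cores, was the member low in Neuro2A described above.

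Within plates, the members' share of a well's gene reads had a median of 2.06%, 2.73% and 2.84% in the ES plates, with 2.20% in Neuro2A and 2.53% in MEF. Wells ranged from 0% to 6.66%, 0.962% to 5.29% and 1.4% to 4.08% in the ES plates, from 0.595% to 11.7% in Neuro2A and from 0.687% to 6.50% in MEF. In the highest wells 1 gene could carry the share: Uqcrq gave 66.2% of the members' reads in the top Neuro2A well, Atp5b 72.6% in the top MEF well and Atp5j 57.9% in the top well of ES replicate 1. Wells whose barcode ends in G had higher medians in all 5 plates, 3.83% against 2.55% in ES replicate 3, 2.89% against 1.97% in Neuro2A and 3.55% against 2.23% in MEF, and 2.32% against 1.94% and 2.79% against 2.66% in ES replicates 1 and 2. Without these wells the plate shares were 2.12%, 2.07% and 2.57% in the ES plates, with 1.91% in Neuro2A and 2.06% in MEF, so ES replicate 3 was still the highest plate. The part of the barcode in other results was not tested beyond these values.

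**Figure D4:**
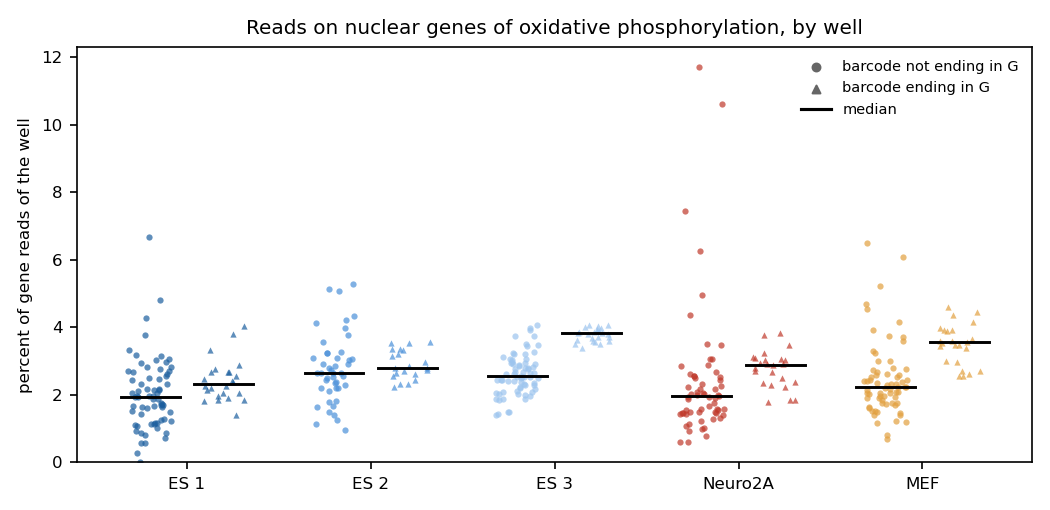
Points show the percent of a kept well's gene reads on the 83 members, by plate, with wells whose barcode ends in G as triangles to the right of the other wells as circles, and lines at the medians. In each plate the median of the triangles is above that of the circles. The widest range is in Neuro2A, where the highest well held 1212 gene reads.

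Across wells of a plate, the shares of complexes I and IV had a Spearman's rho of 0.275, 0.122 and 0.504 in the ES plates, with 0.216 in Neuro2A and 0.393 in MEF. Without barcodes ending in G, rho was 0.284, 0.227 and 0.272, 0.043 and 0.198. Complexes III and IV had a rho of 0.0832, -0.0501 and 0.294 in the ES plates, with 0.0778 in Neuro2A and 0.0694 in MEF. Over all 6 pairs of complexes I, III, IV and V and all plates, rho ran from -0.0501 to 0.507, and from -0.164 to 0.318 without barcodes ending in G. The nuclear share and the share of mitochondrially encoded protein genes had rho of -0.178, 0.0102 and -0.375 in the ES plates, with -0.037 in Neuro2A and -0.114 in MEF. The values of this pair include the wells whose barcode ends in G and were not computed without them. A difference between barcodes can therefore be part of them. Wells of a plate share their library and PCR, so these values are descriptions.

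After every well was thinned to 1000 gene reads, the members' summed reads had a coefficient of variation (CV) of 52.2%, 33.7% and 27.7% in the ES plates, with 72.0% in Neuro2A and 44.5% in MEF, where counting alone would give 21.4%, 18.6% and 18.3%, 19.7% and 19.2%. Counting here is of amplified reads, for which the labels name no molecular identifiers. Amplification and differences between cells cannot be told apart in these CVs. A median well had reads on 10, 15.5 and 18 members in the ES plates, with 10 in Neuro2A and 14 in MEF. Among genes read in at least 20% of thinned wells, the squared CV was set against its trend on the mean. Members above the trend were 5 of 17, 12 of 33 and 5 of 34 in the ES plates, 11 of 24 in Neuro2A and 13 of 30 in MEF, against 43.1%, 44.5%, 42.6%, 43.2% and 41.8% of all such genes. These counts depend on the settings. For the settings that follow, the share of all such genes above the trend is not given, so those counts have no background. With 2000 reads per well the members above the trend were 13 of 30, 15 of 54 and 13 of 52 in the ES plates, 16 of 37 in Neuro2A and 10 of 39 in MEF, and with genes read in at least 10% of wells they were 17 of 39, 13 of 55 and 14 of 58, 14 of 44 and 14 of 47, so the plate with the lowest share was not the same in each.

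The lowest mean residuals of log10 squared CV were those of Uqcr (-0.230, 3 plates), Atp5e (-0.195, 3 plates) and Ndufc1 (-0.187, 4 plates). The highest were Sdha (0.341) and Ndufv2 (0.240), each in ES replicate 2 alone, and Ndufb6 (0.134, 2 plates). Atp5b was below the trend in the ES plates and Neuro2A, at -0.346 to -0.134, and above it in MEF at 0.545, the plate with the well dominated by its reads. Uqcrq was likewise above the trend in Neuro2A alone (0.575), and Atp5j in ES replicate 1 alone (0.765).

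**Figure D5:**
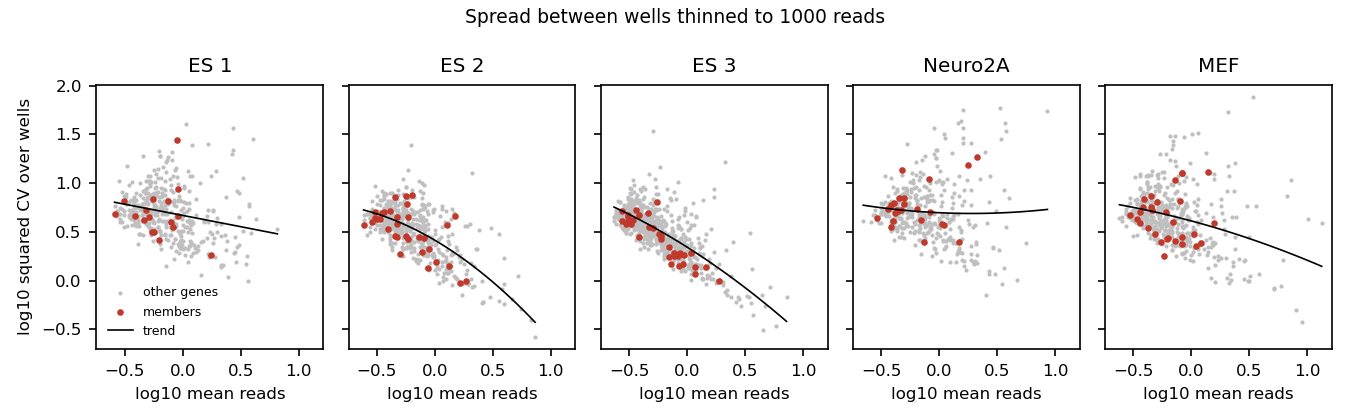
Each panel plots, for 1 plate, log10 of the squared CV over wells thinned to 1000 reads against log10 of the mean reads per well, for members (red), other genes (grey) and the trend (line). Most members of ES replicate 3 lie under the line, and in ES replicate 1, Neuro2A and MEF the members highest above it are Atp5j, Uqcrq and Atp5b.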

How the data were processed

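Single cells of 5 plates were profiled by tagged reverse transcription with a barcode per well, and all wells of a plate were amplified together, per the labels' protocols, which name no molecular identifiers. The authors deposited raw read counts per feature and barcode, per the readme deposited with them, and the submitters' processing notes list Bowtie. The sources used here give no version of it, no genome build, no annotation and no rule for reads with several matches. Paralogs and processed pseudogenes could share reads. Features named as repeats or mitochondrial were left out of totals, and predicted genes were kept. Genes that a file does not list counted as 0.

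Reads of kept wells were summed per plate, since cells of a plate are not replicates, and fitted over all genes with edgeR 4.0.16 (glmQLFit, glmQLFTest, TMM, filterByExpr, Benjamini-Hochberg at 0.05), with DESeq2 1.42.0 and limma-voom (limma 3.58.1) as alternatives. The common dispersion was 1.50. P-values measure only the spread between the ES plates, which may be technical. Ratios without replicates used CPM + 1. Where a plate had 0 reads of a gene, 3 reads in that library stood as its floor (0.951 CPM in Neuro2A, 1.02 in MEF and 0.262 to 11.4 in the ES plates). Intervals are exact binomial or Poisson at 95%. They treat reads as independent, and leave out the clustering of reads in wells and the spread between the ES plates.

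The members, the lists and the alternatives were chosen with earlier results of these data known. Named were the 4 members of highest mean CPM in complexes I, III, IV and V, all of complex II, Cyc1, Cycs, the paralog sets, members past the test, and the 3 highest and 3 lowest residuals of spread. The values of 1 member, kept in all counts and shares, are not reported here. Others among the members were named after their values were seen. Macrophage, endothelial and erythroid markers summed to at most 16.9, 114 and 9.21 CPM in any plate. Promoter windows are RefSeq's (GRCm38.p6), matched by symbol or synonym, and 68 of 83 members had one. Other tools were R 4.3.3, matplotlib 3.10.9, pandas 2.3.3, scipy 1.17.1, numpy 2.4.6 and python 3.11.15.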

Additional observations from a re-analysis of the deposited data

How the results depend on the processing

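Of 130 alternative values computed, 99 stayed within tolerance and 31 did not. In edgeR's test 0 members were called in either contrast except without ES replicate 1. Leaving out each ES plate in turn gave 0 to 1 called members in ES against MEF and 0 to 6 in ES against Neuro2A, with the calls at the upper end from the fit without ES replicate 1. DESeq2 called 1 and 7 members. The ES share of 2.54% lay between 2.26% and 2.70% when each ES plate was left out. The shares of Neuro2A and MEF were 1.79% and 2.00% with mitochondrially encoded genes in the total, 2.48% and 2.57% without predicted genes, 2.53% and 2.73% with equal weight for each well, and 1.91% and 2.06% without barcodes ending in G, an alternative chosen after seeing the data. Equal weight for each well lowered ES replicates 1 and 3 and raised the other plates. The median log2 ratio of Neuro2A to MEF was -0.58 with TMM and -0.059 with library size alone.

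With the share of wells with a read in place of reads, Cox7a1 held 21.2% of its set in ES, 1.09% in Neuro2A and 1.27% in MEF. Cox6b2 held 2.00% in Neuro2A and 20.5% in MEF, Ndufa4l2 13.3% in ES and 1.30% in MEF, and Atp5g3 57.7%, 80.5% and 57.5%. After subtraction of carried-over reads Atp5g3 held 86.1% in MEF. Members above the trend of spread numbered 13 of 30 in ES replicate 1 and 13 of 52 in ES replicate 3 with 2000 reads per well, 17 of 39 and 14 of 58 with genes read in at least 10% of wells, and 8 of 33 in ES replicate 3 with another random seed, where the main numbers were 5 of 17 and 5 of 34. In MEF they went from 13 of 30 to 10 of 39, 14 of 47 and 9 of 27. The share of all genes above the trend is given for the main setting alone. On the TMM scale, added after seeing the data, 13 members had every ES plate higher than MEF and 36 lower. The cause of these shifts was not tested. The members' median log2 fold change in ES against MEF changed sign, from -0.43 to 0.27 without TMM, 0.14 without a low-count filter, 0.30 without ES replicate 2 and 0.03 without barcodes ending in G, and in ES against Neuro2A from 0.20 to -0.05 without ES replicate 3. The members' medians minus those of all genes ran from -0.86 to 0.08 in ES against MEF, below 0 in 14 of 15 settings (all but limma-voom), and from -1.48 to -0.26 in ES against Neuro2A. Depth limits ES replicate 2 most, where 3 reads are 11.4 CPM. No paired analysis was possible because the labels give no replicate numbers and Neuro2A and MEF have 1 plate each.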
